A study of Mus musculus with 11 samples.

Results

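Cell-cell junctions of the mouse mammary epithelium were followed through 8 genes, chosen by name: the classical cadherins Cdh1 and Cdh3, the catenins Ctnna1, Ctnnb1 and Ctnnd1, and the connexins Gja1, Gjb1 and Gjb2. They are 8 of the 20145 named genes on the array, chosen with earlier results of these data known. Each was measured by 1 probe, and all 8 passed the filter on dim probes, which 14068 named genes passed.

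Adherens junctions hold epithelial cells together: a cadherin on one cell binds a cadherin on its neighbour, and catenins tie the cadherin tail to the actin cytoskeleton. In the mammary gland E-cadherin (Cdh1) is best known from luminal cells and P-cadherin (Cdh3) from the basal, myoepithelial layer. Gap junctions are channels built from connexins that pass ions and small molecules between cells. Connexin Cx43 (Gja1) is the connexin known from myoepithelial cells of the mouse gland, and Cx26 (Gjb2) and Cx32 (Gjb1) are known from luminal cells.

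RNA came from outgrowths of primary mouse mammary epithelial cells that had been infected with lentivirus and mixed with Matrigel for injection. The virus carried a hairpin against Ror2 (shROR2), a receptor of non-canonical Wnt signalling, or a control hairpin (shLUC), so cells of both kinds were transduced and regrown. Basal and luminal cells were then sorted by surface CD24 and CD29. The groups were basal shROR2 (3 arrays), basal shLUC (3 arrays), luminal shROR2 (2 arrays) and luminal shLUC (3 arrays). The labels call the samples biological triplicates without naming the mice they came from, so p-values measure the spread between these samples. Whether cells of the recipient mice were left in the sorted fractions is not stated. Strain, age, the number of hairpin sequences and the promoter that drives them are not given in the sources used here. The arrays lay on 2 slides, each with every group. Each RNA was amplified, labelled with Cy3 and hybridized to its own 1-colour Agilent array.

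Between 52.8% and 59.5% of the 55681 probes lay well above background on an array, and 0 spots were saturated. The 75th percentile of the processed signal, used to scale each array, lay between 112.3 and 131.4. Arrays of a group correlated at 0.989 to 0.992 in 3 of the groups and at 0.964 to 0.975 in basal shROR2, where the median SD of bright probes was 0.269 on the log2 scale against 0.144 in basal shLUC. The sorted cells carried the markers of their labels: 9 of 10 myoepithelial markers were called higher in basal cells and 10 of 10 luminal markers called lower, in both kinds of outgrowth. Ror2 lay near background on its 1 probe, with processed signals of 16.8, 3.03 and 6.93 in basal shROR2 against 10.1 to 12.1 in basal shLUC, and of 3.54 and 8.47 in luminal shROR2 against 3.14 to 3.48 in luminal shLUC. The single array with Ror2 well above background was the array labelled basal shROR2 replicate 1, so basal results that depend on it are also given without it. In sorted bulk RNA, fewer cells of a type and less RNA per cell cannot be told apart.

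Throughout, the relative signal is the processed intensity divided by the 75th percentile of its array, and changes are differences of its log2 value ± standard error (SE). Adjusted p is from limma with the Benjamini and Hochberg method over 29429 features, with 14068 named genes and 15361 unnamed probes, and a feature is called under 0.05. Levels are compared between groups for 1 probe and never between probes.

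The promoters of the connexins are shown because Gja1 and Gjb2 had opposite patterns in the sorted compartments while Gjb1 was called in neither kind of outgrowth. Entries of the RefSeq promoter table (GRCm38.p6) were kept where they matched the outermost annotated start of their gene. This left 5 of the 8 members: Ctnnb1, Ctnnd1, Gja1, Gjb1 and Gjb2. The 250 bases before the annotated start are printed 5′ to 3′ in lower case. Capitals mark matches to CAGGTG (an E-box that Snail-family repressors bind), TGANTCA (the AP-1 motif) or GGGCGG (the GC box), each searched on both strands, and no match overlapped another.
Gja1 (chr10:56377050-56377299, plus strand): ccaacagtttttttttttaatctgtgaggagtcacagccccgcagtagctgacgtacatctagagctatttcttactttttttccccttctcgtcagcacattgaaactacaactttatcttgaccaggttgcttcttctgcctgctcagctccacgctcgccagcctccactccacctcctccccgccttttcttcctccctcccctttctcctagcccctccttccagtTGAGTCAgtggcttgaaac
Gjb2 (chr14:57104703-57104952, minus strand): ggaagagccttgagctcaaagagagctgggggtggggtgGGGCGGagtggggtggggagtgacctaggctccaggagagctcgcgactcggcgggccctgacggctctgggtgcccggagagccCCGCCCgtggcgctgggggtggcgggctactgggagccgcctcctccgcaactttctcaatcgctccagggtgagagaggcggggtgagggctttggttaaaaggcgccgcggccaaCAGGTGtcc
Gjb1 (chrX:101376126-101376375, plus strand): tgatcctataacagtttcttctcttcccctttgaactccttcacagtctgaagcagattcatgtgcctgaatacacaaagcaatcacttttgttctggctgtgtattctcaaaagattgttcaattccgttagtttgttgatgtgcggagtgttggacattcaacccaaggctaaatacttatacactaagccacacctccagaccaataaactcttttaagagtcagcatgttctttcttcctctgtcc

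In these letters Gja1 held 1 TGANTCA match, whose first base lay 19 bases before the start, and 7.5% of all 19827 promoters held that motif. Gjb2 held 1 CAGGTG match at 9 bases before the start and 2 GGGCGG matches at 211 and 126 bases, motifs found in 17.2% and 26.8% of all promoters. Gjb1 held 0 matches to the 3 motifs. The G and C content was 50% in Gja1, 69.2% in Gjb2 and 40.4% in Gjb1. Ctnnb1, not printed, held 3 GGGCGG matches and Ctnnd1 held 0 matches to the 3 motifs. A match is a description of letters and no site of binding.

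The comparison of basal with luminal cells set the junction genes of both layers of the epithelium side by side. Cdh3 and Gja1 were far higher in basal cells, Gjb2 was far lower, and Cdh1 was modestly lower, in shROR2 and in shLUC outgrowths alike. Among the catenins, Ctnnd1 was called lower in basal cells of shROR2 outgrowths and Ctnna1 called higher in those of shLUC outgrowths, and Ctnnb1 was called in neither. Of the 8 members 5 were called in shROR2 outgrowths (2 higher, 3 lower), where 22.9% of all features were called. In shLUC outgrowths 5 were also called (3 higher, 2 lower), where 26.9% of all features were called. Cdh3 is among those called higher in both, and it passed the filter on dim probes through basal arrays alone. The median log2 change of the members was -0.14 in shROR2 and -0.03 in shLUC outgrowths, against -0.08 and -0.06 over all features.

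**Figure D1:**
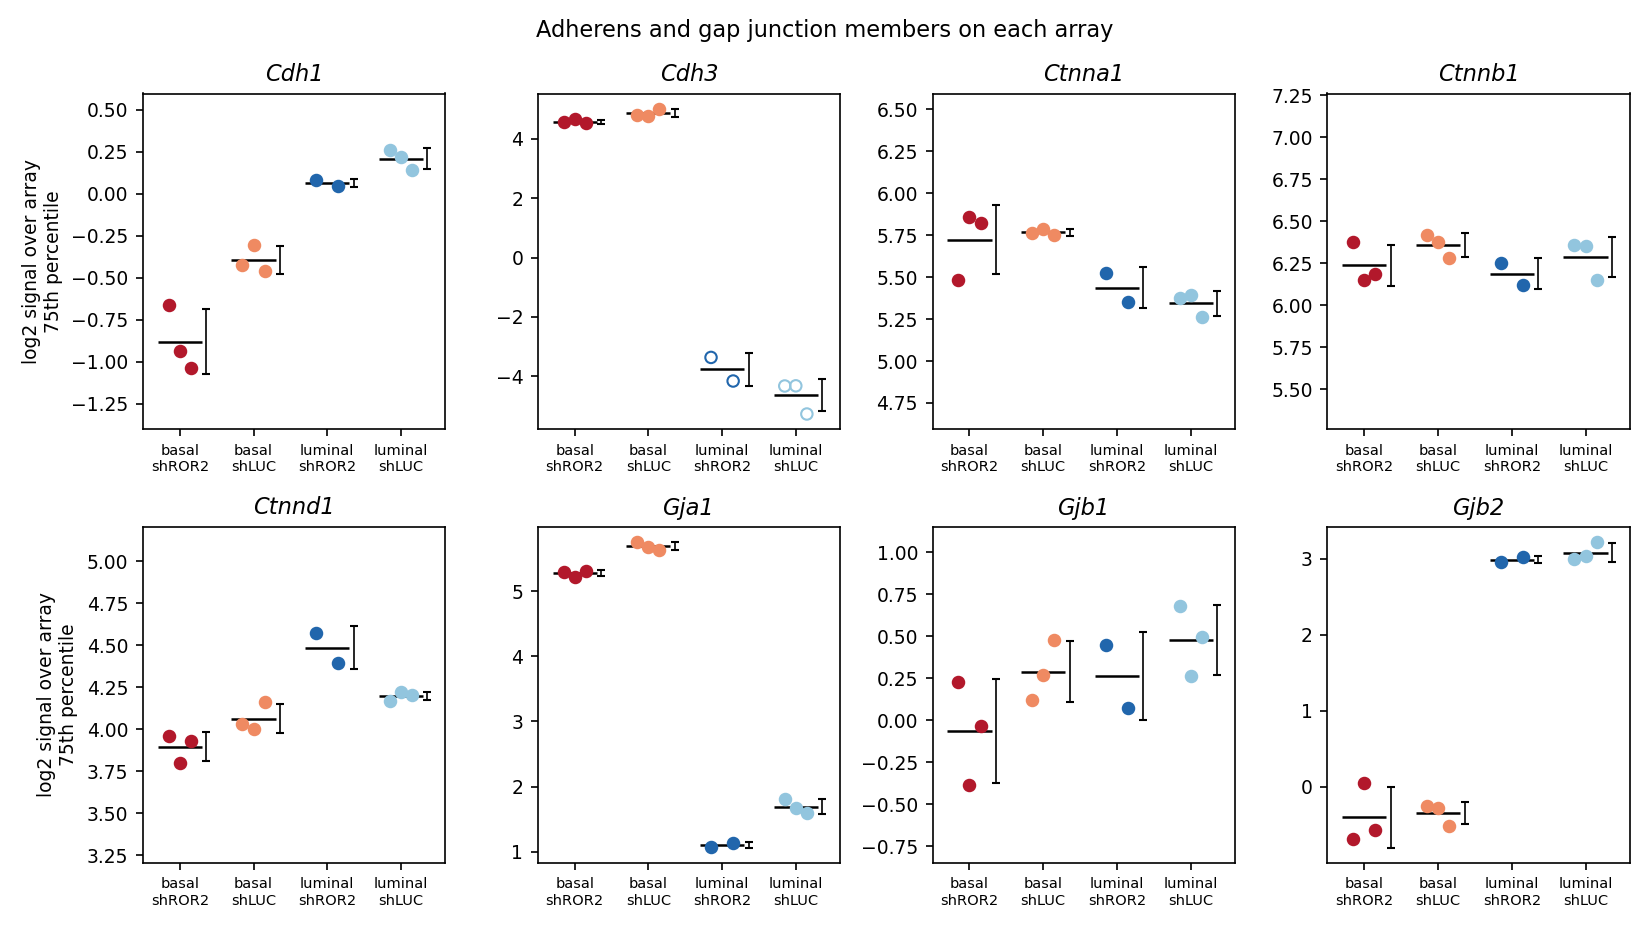
Relative signal (log2 of the processed signal over the array's 75th percentile) of the 8 members on each of the 11 arrays, by group. Points are arrays, horizontal lines group means and bars 1 SD; open points were not well above background. Cdh3 and Gja1 sit highest in the basal groups, Gjb2 in the luminal groups, and Ctnnb1 lies between 6.12 and 6.42 on every array.

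Cdh1, which encodes E-cadherin, had relative signals of 0.631, 0.522 and 0.486 in basal shROR2, 0.746, 0.810 and 0.728 in basal shLUC, 1.06 and 1.03 in luminal shROR2, and 1.2, 1.16 and 1.1 in luminal shLUC. The groups did not overlap, and the order of their means was basal shROR2 lowest, then basal shLUC, luminal shROR2 and luminal shLUC. The basal minus luminal change was -0.94 ± 0.14 in shROR2 outgrowths (1.92-fold lower, adjusted p = 0.00113). In shLUC outgrowths the change was -0.60 ± 0.12 (1.52-fold lower, adjusted p = 0.00585). The values within slide 1 and slide 2 were -0.93 and -0.99 in shROR2, and -0.70 and -0.49 in shLUC outgrowths. The shROR2 call was lost in a fit of only these 5 arrays (adjusted p = 0.0511). The changes were smaller, but called, in the authors' table (-0.52 in shROR2 and -0.38 in shLUC outgrowths) and with the normexp background correction (-0.55 and -0.40). Cdh1 was well above background on all 11 arrays.

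Cdh3, which encodes P-cadherin, had relative signals of 23.6, 25.1 and 22.8 in basal shROR2 and 27.8, 27.0 and 32.1 in basal shLUC. In luminal cells it was not well above background on any of 5 arrays, with processed signals of 11.8 and 6.47 in luminal shROR2 and 5.65, 5.82 and 3.06 in luminal shLUC. Its change is therefore a bound, and it passed the filter on dim probes through basal arrays alone. Basal cells were at least 205-fold higher in shROR2 outgrowths (adjusted p = 4.82e-07) and at least 256-fold higher in shLUC outgrowths (adjusted p = 6.93e-08). Both adjusted p values rest on luminal values at background level and do not test the bounds. For these bounds each luminal array was given its own detection floor, the dimmest signal of any probe that passed as well above background there. Cdh3 lies next to Cdh1 in the RefSeq annotation with 0 protein-coding genes between them, and the neighbours had opposite directions between the layers.

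The catenins were well above background on all 11 arrays. Ctnnb1, which encodes β-catenin, the cadherin partner that also carries the canonical Wnt signal, had relative signals of 82.9, 71.0 and 72.9 in basal shROR2, 85.5, 82.9 and 77.7 in basal shLUC, 76.3 and 69.6 in luminal shROR2, and 81.9, 81.8 and 71.0 in luminal shLUC. Basal shLUC lay above luminal shROR2 without overlap, and every other pair of groups overlapped. The basal minus luminal change was 0.05 ± 0.13 in shROR2 outgrowths (95% interval -0.24 to 0.34, adjusted p = 0.824) and 0.07 ± 0.11 in shLUC outgrowths (95% interval -0.19 to 0.33, adjusted p = 0.698). In the order of its means (luminal shROR2 lowest, then basal shROR2, luminal shLUC and basal shLUC) all neighbours overlapped.

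Ctnna1 encodes α-catenin, the link from β-catenin to actin. Its relative signals were 44.8, 58.0 and 56.6 in basal shROR2, 54.2, 55.2 and 53.8 in basal shLUC, 46.0 and 40.8 in luminal shROR2, and 41.5, 42.1 and 38.3 in luminal shLUC. The array labelled basal shROR2 replicate 1 was the lowest of the basal arrays and overlapped with luminal shROR2, while basal and luminal shLUC did not overlap. Ctnna1 was called higher in basal cells of shLUC outgrowths by 0.42 ± 0.13 (adjusted p = 0.0354), a call lost in 10 of 24 alternatives, with the slide as a block among them (0.43, adjusted p = 0.0541). It was also lost without any 1 of the 6 shLUC arrays (0.38 to 0.45, adjusted p = 0.0727 to 0.114). In shROR2 outgrowths the change was 0.29 ± 0.14 (adjusted p = 0.185) with all arrays and 0.40 (adjusted p = 0.044) without the array labelled basal shROR2 replicate 1. The changes in both kinds of outgrowth differed by -0.14 ± 0.19 (adjusted p = 0.894).

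Ctnnd1 encodes p120-catenin, which binds cadherins near the membrane and keeps them at the surface. Its relative signals were 15.6, 13.9 and 15.2 in basal shROR2, 16.3, 16.0 and 17.9 in basal shLUC, 23.8 and 21.0 in luminal shROR2, and 18, 18.6 and 18.4 in luminal shLUC. Luminal shROR2 was the highest group and basal shROR2 the lowest, and no groups overlapped. In shROR2 outgrowths the basal minus luminal change was -0.59 ± 0.12 (1.5-fold lower, adjusted p = 0.00646). That call was lost without luminal shROR2 replicate 1 (-0.50, adjusted p = 0.0705) and in a fit of only these 5 arrays (adjusted p = 0.118). In shLUC outgrowths the change was -0.13 ± 0.10 (adjusted p = 0.389). The changes differed by -0.46 ± 0.16 between shROR2 and shLUC outgrowths, with adjusted p = 0.511, so a call in one kind of outgrowth does not show that the layers differed more there.

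Gja1, the connexin gene for Cx43, had relative signals of 39.4, 37.3 and 39.5 in basal shROR2, 53.8, 51.3 and 49.4 in basal shLUC, 2.11 and 2.20 in luminal shROR2, and 3.52, 3.19 and 3.01 in luminal shLUC. No groups overlapped, and luminal cells still lay well above background on all 5 arrays. Basal cells were 17.9-fold higher than luminal cells in shROR2 outgrowths (4.17 ± 0.11, adjusted p = 7.74e-08). In shLUC outgrowths they were 15.9-fold higher (3.99 ± 0.10, adjusted p = 3.13e-08). Within slide 1 and slide 2 the change was 4.22 and 4.08 in shROR2, and 3.87 and 4.05 in shLUC outgrowths. Ranked by p over all features, Gja1 stood at place 21 in shROR2 and 29 in shLUC outgrowths.

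Gjb2, the connexin gene for Cx26, had relative signals of 0.619, 1.03 and 0.676 in basal shROR2, 0.842, 0.826 and 0.699 in basal shLUC, 7.74 and 8.14 in luminal shROR2, and 7.94, 8.21 and 9.29 in luminal shLUC. The basal groups overlapped with each other, as did the luminal groups, and a wide gap lay between the layers. Basal cells were 10.5-fold lower than luminal cells in shROR2 outgrowths (-3.39 ± 0.21, adjusted p = 8.37e-06) and 10.8-fold lower in shLUC outgrowths (-3.43 ± 0.19, adjusted p = 2.38e-06). Within slide 1 and slide 2 the change was -3.58 and -2.98 in shROR2, and -3.37 and -3.40 in shLUC outgrowths. Gja1 and Gjb2, shown above with their promoters, thus marked opposite layers.

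Gjb1, the connexin gene for Cx32, showed no such division. Its relative signals were 1.17, 0.765 and 0.976 in basal shROR2, 1.09, 1.21 and 1.39 in basal shLUC, 1.36 and 1.05 in luminal shROR2, and 1.60, 1.2 and 1.41 in luminal shLUC. Basal and luminal arrays overlapped in both kinds of outgrowth. The basal minus luminal change was -0.33 ± 0.22 in shROR2 outgrowths (95% interval -0.82 to 0.17, adjusted p = 0.334) and -0.19 ± 0.20 in shLUC outgrowths (95% interval -0.63 to 0.26, adjusted p = 0.528). The members with groups that did not overlap numbered 5 in shROR2 outgrowths and 6 in shLUC outgrowths, where 45.6% and 52.2% of all features did not overlap.

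**Figure D2:**
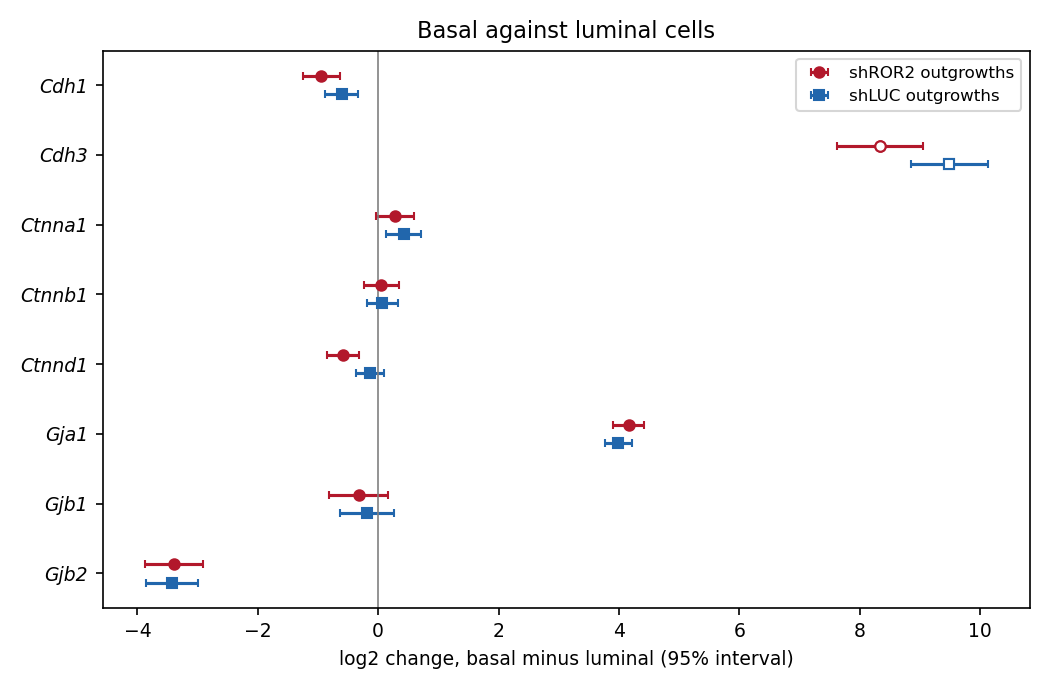
Log2 change of each member, basal minus luminal, in shROR2 (circles) and shLUC (squares) outgrowths, with 95% intervals from the fit. Cdh3 and Gja1 stand far to the right and Gjb2 to the left in both; the Cdh3 points are open because its luminal signal was not above background, so only the bounds of at least 205-fold and 256-fold hold.

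Markers of cells outside the epithelium also differed between the sorted fractions. Fibroblast markers were called higher in basal cells for 6 of 8 genes in shROR2 and 8 of 8 in shLUC outgrowths, and their summed relative signal was 58.6 to 75.9 in basal shROR2, 62.7 to 68.8 in basal shLUC, 11.6 to 12.3 in luminal shROR2 and 6.86 to 7.20 in luminal shLUC. Of these genes, Lum and Pdgfra were not well above background in luminal cells and passed the filter on dim probes through basal arrays alone. That left little room for a call lower for either gene. Endothelial markers were called higher for 7 of 8 and 5 of 8 genes, with sums of 45.6 to 59.7 in basal shROR2, 23.9 to 31.9 in basal shLUC, 17.8 to 18.5 in luminal shROR2 and 13.2 to 14.2 in luminal shLUC. The myoepithelial sum was 1780 to 1866 in basal shROR2, 1871 to 2155 in basal shLUC, 124 to 131 in luminal shROR2 and 118 to 125 in luminal shLUC. Leukocyte markers went the other way, with 2 of 7 called lower in basal cells of shROR2 and 4 of 7 in those of shLUC outgrowths, and sums of 89.5 to 99.2 in basal shROR2, 60.2 to 63.7 in basal shLUC, 109 to 111 in luminal shROR2 and 86.2 to 87.7 in luminal shLUC. Of all features 10.6% and 13.8% were called higher in basal cells of shROR2 and shLUC outgrowths, and 12.3% and 13% lower. The leukocyte genes called were Lyz2 and H2-Ab1 in both kinds of outgrowth, with Cd74 and H2-Aa in shLUC outgrowths alone. Ptprc, Csf1r and Cd3e were called in neither. Fibroblast and endothelial marker sums were thus higher and leukocyte sums lower in the basal fractions, and their part in the Gja1, Cdh3 and Gjb2 differences was not tested.

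The comparison of shROR2 with shLUC outgrowths set the hairpin against Ror2 beside the control hairpin in each layer. Ror2 itself lay near background, so whether it was knocked down could not be seen on these arrays. Gja1 was the member with the smallest p in both layers: its mean was lower in shROR2 outgrowths in luminal cells and in basal cells, with no overlap between the groups. Adjusted over all features, 0 of 8 members were called in luminal cells, where 0.0034% of all features were called and 5.55% had an unadjusted p under 0.05. In basal cells 0 of 8 members were called as well, where 0.948% of all features were called and 15.8% had an unadjusted p under 0.05. With an unadjusted p under 0.05 stood Ctnnd1 and Gja1 in luminal cells and Cdh1 and Gja1 in basal cells; the luminal Cdh3 values, all at background level, have no order and allow no test. Taken as the average of both layers, a comparison chosen after the values were seen, Gja1 was called lower, the single call among 8 members where 0.455% of all features were called.

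In basal cells the shROR2 minus shLUC change of Gja1 was -0.41 ± 0.10 (1.33-fold lower, adjusted p = 0.105), with all 3 shROR2 arrays below all 3 shLUC arrays. Without the array labelled basal shROR2 replicate 1 the change was -0.42 (adjusted p = 0.0939). Within slide 1 it was -0.39 and within slide 2 -0.46. It was called with normexp (-0.42, adjusted p = 0.0280) and with a spread modelled on intensity (adjusted p = 0.0276). In luminal cells it was -0.58 ± 0.11 (1.5-fold lower, unadjusted p = 0.000654, adjusted p = 0.295), with both shROR2 arrays below all 3 shLUC arrays, and within the slides -0.74 and -0.49. The spread modelled on intensity gave it a call as well (adjusted p = 0.0398). Gja1 took place 65 by p in the luminal comparison, where a single feature was called.

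The Gja1 probe was spotted 10 times on each array, which shows how closely a single hybridization repeats itself. Across the 29 usable spots of basal shROR2 the relative signal ran from 34.48 to 42.05, against 46.85 to 57.71 across the 29 of basal shLUC. In luminal cells the 17 usable spots of shROR2 ran from 1.963 to 2.370, against 2.798 to 3.717 over 30 spots of shLUC. The lowest shLUC spot thus lay above the highest shROR2 spot in each layer. Spots of 1 array share the same RNA and are no replicates of a group.

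Averaged over both layers, the Gja1 change was -0.50 ± 0.08 (1.41-fold lower, adjusted p = 0.0395). This call was lost in 12 of 23 alternatives, over which adjusted p ran from 0.00186 to 0.171. With the slide as a block it was -0.50 (adjusted p = 0.0626), and it was lost without any 1 of the 5 luminal arrays or of the 3 basal shLUC arrays (adjusted p = 0.0865 to 0.171). The basal and luminal changes differed by 0.17 ± 0.15 (95% interval -0.17 to 0.52, adjusted p = 0.823).

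**Figure D3:**
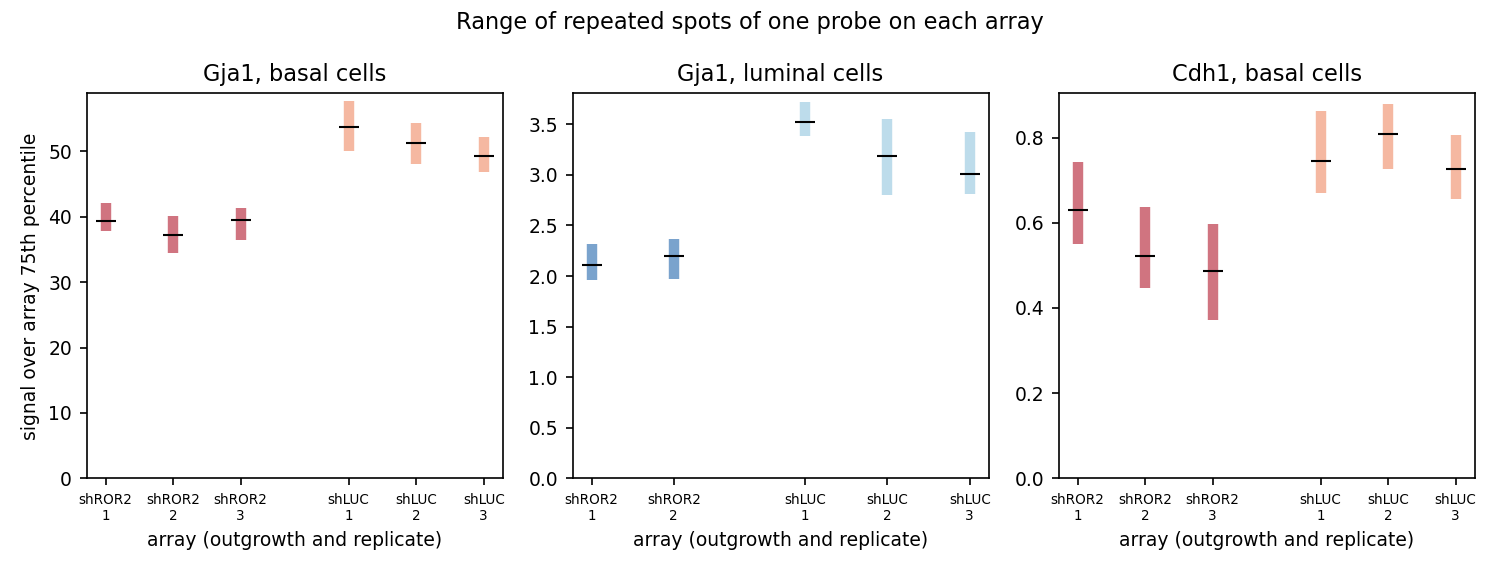
Relative signal of the repeated spots of the Gja1 probe in basal and luminal cells and of the Cdh1 probe in basal cells, 1 bar per array from the lowest to the highest spot, with a black line at the array's mean. The Gja1 bars of shROR2 arrays end at 42.05 in basal cells, below the shLUC bars that begin at 46.85, whereas the Cdh1 bars of shROR2 and shLUC arrays overlap.

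The shROR2 minus shLUC change of Cdh1 in basal cells was -0.49 ± 0.12 (1.40-fold lower, unadjusted p = 0.00313, adjusted p = 0.106), with the array means apart. Without the array labelled basal shROR2 replicate 1 the change was -0.59 (adjusted p = 0.0351). The change was -0.25 with normexp (adjusted p = 0.136) and -0.24 in the authors' table (adjusted p = 0.138). The 10 spots per array overlapped between groups, with relative signals of 0.3725 to 0.7432 in basal shROR2 against 0.6551 to 0.8786 in basal shLUC. In luminal cells the Cdh1 change was -0.14 ± 0.14 (95% interval -0.45 to 0.16). The basal and luminal changes differed by -0.34 ± 0.18 (adjusted p = 0.669).

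The other members stayed further from the threshold. In basal cells Cdh3 differed by -0.28 ± 0.28 (adjusted p = 0.684), with its 3 shROR2 arrays below its 3 shLUC arrays. Ctnnd1 differed by -0.17 ± 0.10 in basal cells (adjusted p = 0.479) and by 0.29 ± 0.12 in luminal cells (adjusted p = 0.840), and in each layer its groups did not overlap. Gjb1 differed by -0.35 ± 0.20 in basal cells (adjusted p = 0.425) and by -0.22 ± 0.22 in luminal cells, with overlapping groups in both.

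Ctnnb1, Ctnna1 and Gjb2 showed the smallest changes with the hairpin. The 95% interval of Ctnnb1 was -0.38 to 0.14 in basal cells and -0.39 to 0.19 in luminal cells. For Ctnna1 it was -0.33 to 0.24 in basal cells and -0.23 to 0.41 in luminal cells. For Gjb2 it was -0.49 to 0.38 in basal cells and -0.58 to 0.39 in luminal cells. These intervals bound what the 2 or 3 arrays per group could show and do not show that the levels were equal.

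By direction alone, all 8 members were lower in basal shROR2 than in basal shLUC, although Ctnna1 and Gjb2 turned higher when arrays were scaled to the median (0.03 and 0.02) and Gjb2 also with normexp (0.04) and in the authors' table (0.03). The median change of the members was -0.22, against -0.05 over all features. In luminal cells 5 were lower and 3 higher, with a median of -0.10 against 0.0034 over all features. Groups did not overlap for 4 members in each layer, where 18.5% of all features did not overlap in basal cells and 29.0% in luminal cells. In luminal cells Cdh3 is 1 of the 4 through values at background level, which have no order.

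**Figure D4:**
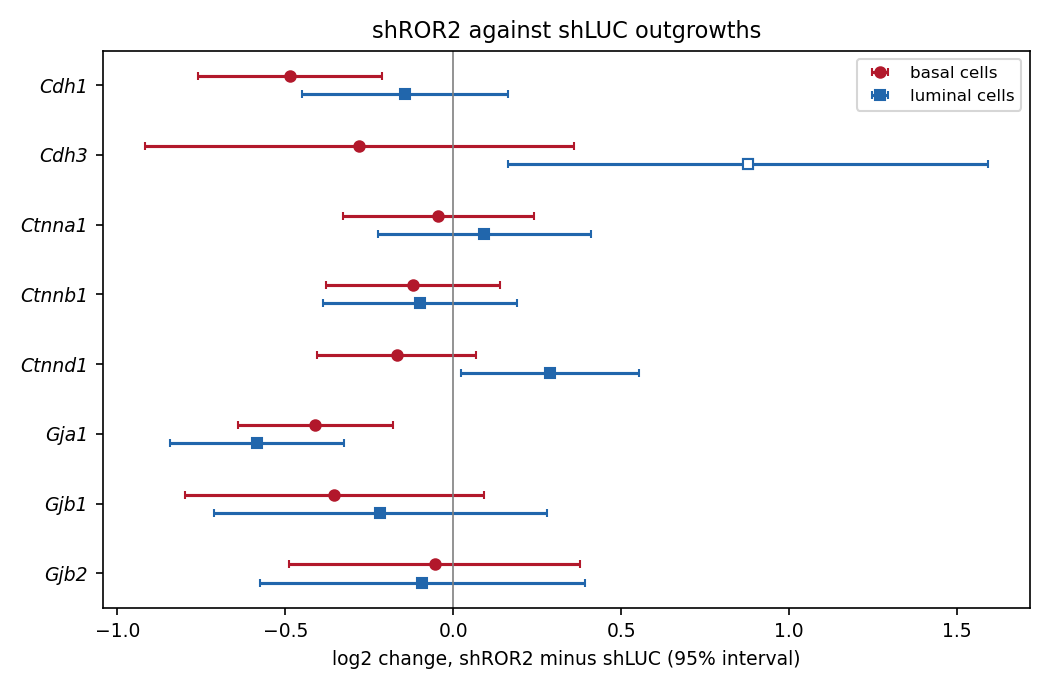
Log2 change of each member, shROR2 minus shLUC, in basal cells (circles) and luminal cells (squares), with 95% intervals that are not adjusted for the number of features. Gja1 lies below 0 in both layers and Cdh1 in basal cells; the open square of Cdh3 marks a luminal signal that was not above background.

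Markers of other cells moved with the hairpin too. The leukocyte sums given above were higher in shROR2 in both layers without overlap. In basal cells much of that rise lay in Cd74 (28.3 to 35.8 against 12.6 to 14.5) and H2-Ab1 (19.1 to 24.2 against 9.29 to 11.6). Whether these signals came from leukocytes was not tested. Called higher in basal shROR2, as were 0.374% of all features, were the leukocyte genes Cd74 (1.27 ± 0.13, adjusted p = 0.00967) and H2-Ab1 (1.12 ± 0.13, adjusted p = 0.0126), the endothelial genes Plvap (1.35 ± 0.24, adjusted p = 0.0436) and Emcn (1.5 ± 0.28, adjusted p = 0.0492), and Fabp4 of adipocytes and capillaries (1.02 ± 0.14, adjusted p = 0.0215). The Plvap call was lost in 16 of 24 alternatives, the Emcn call in 19 of 23, the Fabp4 call in 7 of 24, the H2-Ab1 call in 4 of 24 and the Cd74 call in 2 of 24. The endothelial sums given above were higher in shROR2 in both layers without overlap. The adipocyte sum of 3 measured markers was 44.3 to 54.5 in basal shROR2 against 22.5 to 25.6 in basal shLUC, and 10.9 to 12.8 in luminal shROR2 against 5.53 to 7.03 in luminal shLUC, nearly all of it Fabp4 (43.7 to 54.0 against 22.0 to 25.2 in basal cells), with the defining genes Adipoq, Cfd and Lep well above background on 0 arrays of either shROR2 group.

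Sums of epithelial markers in the basal fraction differed too. Of single markers, 0 of 10 luminal and 0 of 10 myoepithelial genes were called, where 0.948% of all features were. The luminal marker sum was 78.0 to 102.9 in basal shROR2 against 66.5 to 70.0 in basal shLUC, and the myoepithelial sums of these groups, given above, did not overlap either and were lower in shROR2. Within the luminal sum Krt18 had 36.8 to 48.3 against 28.8 to 30.4, while the means of Krt8 and Esr1 were lower in basal shROR2. The fibroblast sums of the basal groups overlapped. In luminal cells the fibroblast sums given above were higher in shROR2 and the luminal marker sum was 528.6 to 570.8 in shROR2 against 503.1 to 520.1 in shLUC. The part of these differences in the lower Gja1 and Cdh1 signals was not tested.

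The other genes of the junctions were counted from lists written from general knowledge, with earlier results of these data known. Of 6 measured cadherins outside the members, 5 were called higher in basal cells of shROR2 outgrowths and 4 in those of shLUC outgrowths, with 0 lower; 10.6% and 13.8% of all features were called higher. Their median change was 1.66 in shROR2 and 2.18 in shLUC outgrowths. Cdh13 (T-cadherin) was higher by 2.78 ± 0.14 (adjusted p = 2.06e-06) and 3.09 ± 0.12 (adjusted p = 3.11e-07), and N-cadherin gene Cdh2 by 1.32 ± 0.28 (adjusted p = 0.00905) and 2.09 ± 0.25 (adjusted p = 0.000306). Cdh5, the cadherin of endothelial cells, was higher by 2.38 ± 0.42 (adjusted p = 0.00374) and 2.27 ± 0.38 (adjusted p = 0.00227), beside the endothelial marker sums given above. Cdh10 was not well above background in luminal cells, and was at least 1.39-fold higher in basal cells of shROR2 outgrowths (adjusted p = 0.0145) and at least 1.86-fold higher in those of shLUC outgrowths (adjusted p = 0.00179). Cdh11, also not well above background in luminal cells and well above it on 2 of 3 basal shROR2 and 1 of 3 basal shLUC arrays, had adjusted p = 0.0249 in shROR2 and 0.116 in shLUC outgrowths. Cdh10 and Cdh11 passed the filter on dim probes through basal arrays alone, which left little room for a call lower in the counts above. Their adjusted p rests on luminal values at background level.

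Partners of the adherens junction divided in both directions. Of 22 measured, 9 were called higher and 6 lower in basal cells of shROR2 outgrowths, and 10 higher and 4 lower in those of shLUC outgrowths. Of all features 10.6% and 13.8% were called higher, and 12.3% and 13% lower. The list's median was -0.20 in shROR2 and 0.39 in shLUC outgrowths. Higher in basal cells were the actin-binding genes Lima1 (2.48 ± 0.13 and 2.34 ± 0.12) and Actn1 (1.97 ± 0.15 and 2.42 ± 0.14), the nectin gene Nectin1 (2.37 ± 0.22 and 2.76 ± 0.19), the α-catenin relative Ctnnal1 (2.66 ± 0.28 and 2.95 ± 0.25) and vinculin, Vcl (0.99 ± 0.12 and 1.23 ± 0.10), each called in shROR2 and in shLUC outgrowths. Nectin4 was not well above background in basal cells and stood at least 1.94-fold lower there in shROR2 outgrowths (adjusted p = 1.63e-05) and at least 1.72-fold lower in shLUC outgrowths (adjusted p = 9.36e-06). It passed the filter on dim probes through luminal arrays alone, which left little room for a call higher in the counts above. Its adjusted p rests on basal values at background level. Jup, the plakoglobin gene and closest relative of Ctnnb1, differed by -0.20 ± 0.12 (adjusted p = 0.292) and 0.02 ± 0.11 (adjusted p = 0.897).

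Among 12 measured connexins and pannexins outside the members, 6 were called higher in basal cells in each kind of outgrowth and 0 lower. Their median change was 0.92 in shROR2 and 1.2 in shLUC outgrowths. Of all features 10.6% and 13.8% were called higher in shROR2 and shLUC outgrowths, and 12.3% and 13% lower. The channel gene Panx1 was higher by 3.33 ± 0.38 in shROR2 and 3.87 ± 0.34 in shLUC outgrowths. Gjc1 was not well above background in luminal cells and at least 4.02-fold and 3.04-fold higher in basal cells. It passed the filter on dim probes through basal arrays alone. Gjb6, the direct neighbour of Gjb2, did not pass the filter.

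Regulators of Cdh1 were set beside it, since Snail, Zeb and Twist proteins are known repressors of E-cadherin and Grhl and Elf3 proteins are epithelial factors. Of 14 measured, 4 were called higher and 2 lower in basal cells in each kind of outgrowth, with medians of 0.57 in shROR2 and 0.31 in shLUC outgrowths. Of all features 10.6% and 13.8% were called higher in these outgrowths, and 12.3% and 13% lower. Snai2 was higher by 6.94 ± 0.15 in shROR2 outgrowths (adjusted p = 3.39e-08) and, being not well above background in luminal shLUC, at least 193-fold in shLUC outgrowths (adjusted p = 3.43e-09). Grhl1 fell in basal cells, with changes of -2.67 ± 0.21 and -2.66 ± 0.18, and so did Elf3, with -1.96 ± 0.18 and -2.09 ± 0.16. The bHLH genes Tcf4 in shROR2 outgrowths (1.36 ± 0.21, adjusted p = 0.00154) and Twist1 in shLUC outgrowths (at least 1.44-fold, adjusted p = 0.000296) were among those called higher. Each is given where it was among the list's 4 smallest adjusted p, which marks no difference between the outgrowths. Twist1 in shROR2 outgrowths had adjusted p of 0.00144 to 0.0346 over 23 alternatives. Mean log2 levels of Tcf4 in shLUC outgrowths were 1.07 in basal and -0.41 in luminal cells. Twist1 passed the filter on dim probes through basal arrays alone, and its adjusted p rests on luminal values at background level. Snai1, well above background in basal shROR2 alone, was at least 2.19-fold higher there than in luminal shROR2 (adjusted p = 0.0586, not called), and no value holds for it in shLUC outgrowths. Zeb1 differed by 0.51 ± 0.75 (adjusted p = 0.684) and 1.31 ± 0.67 (adjusted p = 0.188), Zeb2 by 0.52 ± 0.24 (adjusted p = 0.163) and -0.04 ± 0.22 (adjusted p = 0.917), and Grhl2 by -0.46 ± 0.18 (adjusted p = 0.111) and -0.11 ± 0.16 (adjusted p = 0.665).

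Among genes of the complex that marks β-catenin for destruction, calls went in both directions. Of its 7 measured genes 1 was called higher and 1 lower in basal cells of shROR2 outgrowths, where 22.9% of all features were called, and 0 higher and 1 lower in those of shLUC outgrowths, where 26.9% were called. Gsk3b, a kinase of the complex, fell in basal cells, with changes of -0.67 ± 0.15 (adjusted p = 0.0120) and -0.64 ± 0.13 (adjusted p = 0.00770). Axin2, also a target of canonical Wnt signalling, was not well above background in luminal cells and at least 2.51-fold higher in basal cells of shROR2 outgrowths (adjusted p = 0.00743). It was the 1 gene called higher. Axin2 passed the filter on dim probes through basal arrays alone, and its adjusted p rests on luminal values at background level. In shLUC outgrowths it was not called (adjusted p = 0.0581), and with a bound of 0.967-fold no difference can be stated there.

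**Figure D5:**
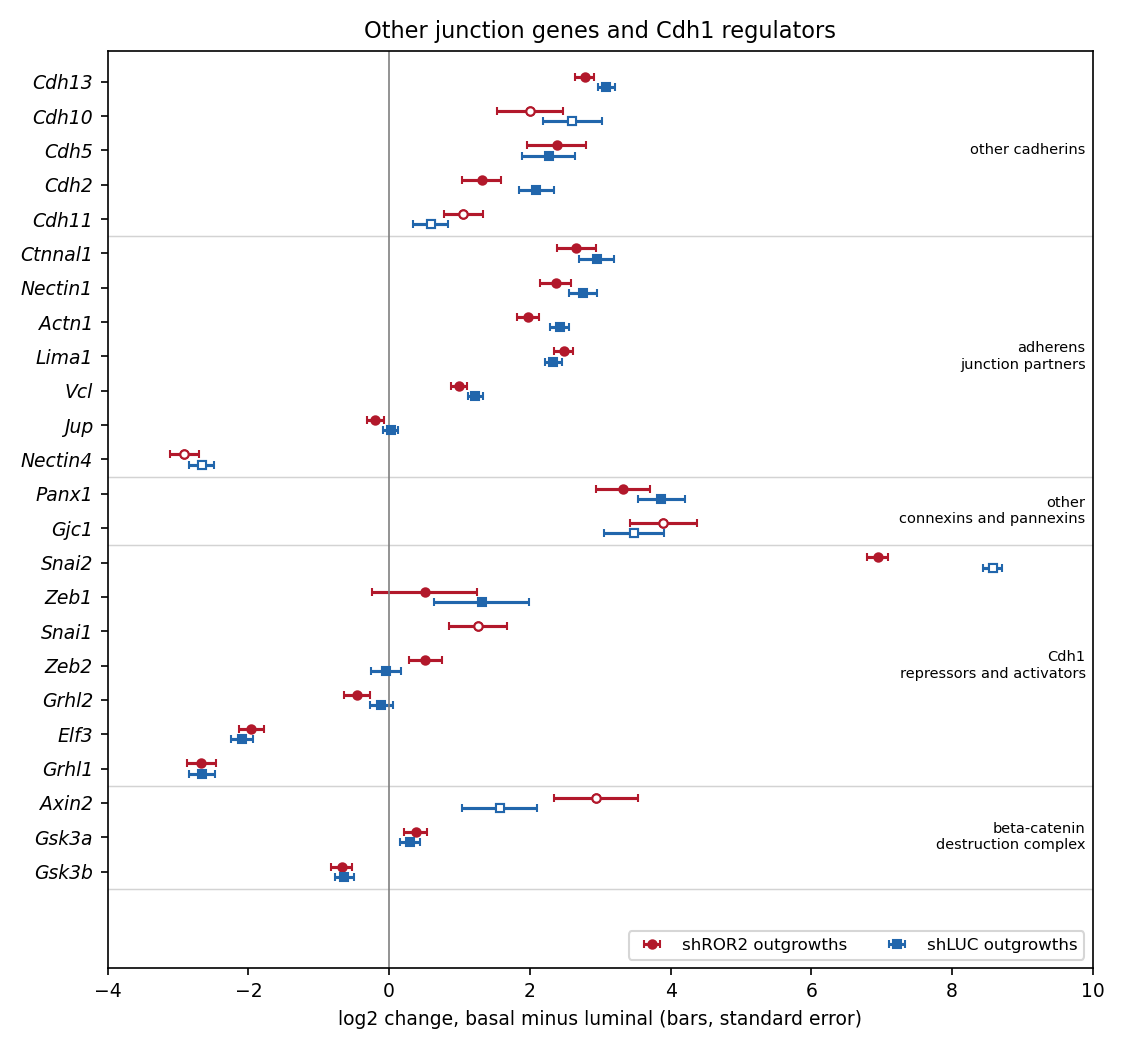
Log2 change, basal minus luminal, of junction genes outside the 8 members and of Cdh1 regulators, in shROR2 (circles) and shLUC (squares) outgrowths, with bars of 1 standard error. Open symbols mark genes not well above background in one of the groups, for which only a bound holds, and Snai1 has no point in shLUC outgrowths, where it was not well above background in either; Panx1, Gjc1 and Snai2 lie to the right, Nectin4, Grhl1 and Elf3 to the left.

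With the hairpin, 0 genes of these 5 lists were called in either layer, where 0.0034% of all features were called in luminal and 0.948% in basal cells. Under the alternatives, Snai2 gained a call in luminal cells in 4 of 23. In basal cells Snai1 gained a call in 2 of 23 and Cdh5 in 2 of 24. Snai2 came nearest in luminal cells, with relative signals of 0.139 to 0.165 in luminal shROR2 against 0.0499 to 0.0641 in luminal shLUC, where it was not well above background (1.41 ± 0.15, at least 1.34-fold higher, adjusted p = 0.0519). Beside it in luminal cells, the myoepithelial marker Acta2 had 2.91 to 3.34 in shROR2 against 1.52 to 1.92 in shLUC (0.88 ± 0.14, adjusted p = 0.158) and Mylk 0.314 to 0.429 against 0.0815 to 0.197 (1.41 ± 0.33, adjusted p = 0.387). Acta2 and Mylk had the smallest p of 10 such markers, of which 0 were called. The median change of the 10 was 0.10, the means of Krt17 and Myh11 were lower in shROR2, and the sums over the 10 overlapped. Snai1 in basal cells had 0.243 to 0.282 in shROR2 against 0.0724 to 0.131 in shLUC, there not well above background (at least 2.46-fold higher, adjusted p = 0.131). Axin2, well above background on 3 basal shROR2 arrays and 1 basal shLUC array, differed by 1.42 ± 0.53 in basal cells (adjusted p = 0.245).

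For the members other than Cdh3 and Ctnnd1 the named genes with the most similar pattern were found by the root mean square difference of centred log2 values over the 11 arrays, among 14060 genes, as a description. Gja1 (SD over arrays 2.12) lay closest to Ptx3 (0.144) and Pkp1 (0.186). Gjb2 (SD 1.80) lay closest to Grb7 (0.177) and the claudin gene Cldn3 (0.221). For both members the nearest genes differed by far less than the member varied over the arrays, much of that variation being the contrast of basal with luminal cells. No likeness is given for Cdh3, whose luminal values were at background level. Cdh1 (SD 0.466) lay closest to Snf8 (0.0823) and Ube2q2 (0.0926), and Ctnnb1 (SD 0.108) to Cct4 (0.0335) and Gm10653 (0.0620). Ctnna1 (SD 0.220) lay closest to Sdc4 (0.0889) and Tut4 (0.0891), and Gjb1 (SD 0.295) to Zw10 (0.109) and F2rl1 (0.113).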

How the data were processed

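Gene expression was measured on 11 one-colour Agilent arrays of sorted basal and luminal cells. The deposited intensity is the processed signal of each spot: per the file headers, Feature Extraction 11.0.1.1 subtracted background and removed spatial trends array by array, with no step between arrays. The authors' value table, an alternative here, holds linear intensities with column medians near 89, made by steps that no source used here gives. The members and gene lists were chosen with earlier results of these data known.

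Spots of a probe were averaged without outlier spots, log2 values were taken and the log2 of the array's 75th percentile subtracted. Probes were named through RefSeq accessions (GRCm38.p6, names only), with 1 symbol for 26582 and none for 29099. Probes had to be well above background on at least 3 of 11 arrays (33611 were, 17 with a missing value were left out), and the brightest probe stood for each of 3490 genes with several. A gene well above background in 1 layer alone passed through that layer, which largely set its direction between the layers. Among these were Cdh3, Cdh10, Cdh11, Gjc1, Twist1, Snai1, Axin2, Lum and Pdgfra through basal arrays and Nectin4 through luminal arrays. Where only a bound is given, the adjusted p beside it rests on values at background level in one of the groups. A model with 4 group means was fitted with limma 3.58.1 (lmFit, eBayes, 8.85 degrees of freedom in all) in R 4.3.3 and tested on simulated data. It shares 1 spread per gene among groups. The number of arrays limits the precision. Two-sided p values were adjusted by the Benjamini and Hochberg method. Sample numbers were checked for pairing: 0 of 15 same-numbered pairs correlated above 0.1, so no block was used. The check covers pairing by number only. It cannot show whether basal and luminal fractions with other numbers came from the same outgrowth.

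Named were all members, the 4 genes of each list with the smallest adjusted p and a fixed set of cadherin, connexin and Cdh1 regulator genes, except some genes that are not reported here and enter only the counts over lists. The normexp alternative used median spot signals in place of mean signals, since the files used here hold the former. Alternatives changed scaling, background, filter, probe choice, blocks, spread and arrays. Figures were drawn with matplotlib 3.10.9.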

Additional observations from a re-analysis of the deposited data

Results flagged for a closer look

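The hairpin changes of 2 members had opposite directions in the layers with every array of a group on the same side. Cdh3 differed by -1.155 between the layers (basal minus luminal change), with an interaction test at adjusted p = 0.533. Its basal arrays were lower in shROR2 than in shLUC and its luminal arrays higher, but all 5 luminal arrays were at background level, where values have no order. Ctnnd1 differed by -0.455 (adjusted p = 0.511), lower in basal shROR2 than in basal shLUC and higher in luminal shROR2 than in luminal shLUC, with all arrays well above background. Neither difference was called, and the alternatives gave -0.545 to -0.359 for Ctnnd1.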

How the results depend on the processing

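Over 2490 recomputed values, 2358 kept their direction and side of the threshold, 89 lost a call, 23 gained a call and 20 changed sign. Of the 8 members, 3 in place of 5 were called between basal and luminal cells of shROR2 outgrowths when only the groups compared were fitted, and 4 to 6 without each array in turn. In shLUC outgrowths it was 4 to 5 without each array. For the hairpin in luminal cells 1 member (Gja1) was called with an intensity trend and robust spread. In basal cells it was 1 with normexp, 1 with the trend (Gja1 in both) and 0 to 1 without each array, the 1 being Cdh1 without basal shROR2 replicate 1. The average over both layers had 0 calls with median scaling, no filter, the slide as a block or the replicate block, and 0 to 1 without each array. The replicate block kept 5 and 4 member calls between the layers in shROR2 and shLUC outgrowths and 0 with the hairpin in each layer, and the samples share only a number.

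Changes that turned sign were all close to 0. Between the layers Ctnnb1 stood at -0.026 in shROR2 and -0.0094 in shLUC outgrowths in the authors' table, and at -0.018 to 0.12 in shROR2 outgrowths without each array. Jup in shLUC outgrowths stood at -0.079 (quantile normalization), -0.093 (authors' table) and -0.011 to 0.072 without each array. With the hairpin in luminal cells Ctnna1 stood at -0.012 (authors' table), and Cdh2 at 0.086 and Vcl at 0.012 (mean over probes), with Cdh2 at -0.22 to 0.085 without each array. In basal cells Ctnna1 stood at 0.029 (median scaling) and -0.11 to 0.074 without each array, and Gjb2 at 0.017 (median scaling), 0.040 (normexp), 0.028 (authors' table) and -0.28 to 0.089 without each array.

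The counts over all features moved more: 2822 to 7907 against 6728 between the layers in shROR2 outgrowths, 5827 to 11343 against 7902 in shLUC outgrowths, 0 to 57 against 1 for the hairpin in luminal cells, 0 to 878 against 279 in basal cells, 0 to 23 against 0 for the difference and 0 to 303 against 134 for the average. Cdh3 has no value where probes had to be well above background on all 11 arrays. The causes were not tested. Where a gene was not above background, as Cdh3 in luminal cells, only bounds hold.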
